A study of Mus musculus with 9 samples.

Results

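The genes described here encode the major histocompatibility complex (MHC) class I molecules of the mouse: 9 heavy chains of the H2 locus (H2-K1, H2-D1, H2-Q4, H2-Q6, H2-Q7, H2-T22, H2-T23, H2-T3 and H2-M3) and the light chain β2-microglobulin (B2m). They were chosen by symbol, and each of the 10 was found by its Ensembl identifier among the 29288 genes of the deposited count table. All 10 passed the filter on low counts, which kept 18933 genes. The RNA came from intestinal epithelial cells (IECs) of wild-type (WT) female C57BL/6J mice, sorted from crypts of the proximal small intestine as live cells with EpCAM and without CD45, CD31 and Ter119 on their surface. The study asked how the epithelium responds when natural killer T (NKT) cells are activated by α-galactosylceramide (αGalCer), a glycolipid antigen that CD1d presents to them. The control group was 3 mice injected with PBS and sampled at 18 h, the 18h-αGal group was 3 mice sampled 18 h after an intraperitoneal injection of 2 µg αGalCer, and the 72h-αGal group was 3 other mice sampled 72 h after the same dose. Mice were 7 to 10 weeks old per the study's methods. No PBS group was sampled at 72 h, so at that time the effect of αGalCer and that of the time since injection cannot be told apart.

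Class I heavy chains fold in the endoplasmic reticulum around B2m and a short peptide, and the complex then travels to the cell surface, where CD8 T cells read the peptide. The peptides are cut by the immunoproteasome, pumped by the TAP transporter and fitted to the groove by tapasin and its partner chaperones. Transcription of the heavy chains, B2m and these helpers is raised by interferons through IRF1 and the coactivator NLRC5. In the gut epithelium, non-classical class I molecules such as the TL antigen are also ligands for intraepithelial lymphocytes.

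Epithelial identity of the libraries was clear: the 8 epithelial markers (among them Epcam, Cdh1 and Vil1) summed to 88611 to 127210 normalised counts per library, where a normalised count is the read count divided by a size factor for the library. The 12 detected T, intraepithelial lymphocyte and NK cell markers of 16 listed summed to 91.1 to 268 normalised counts, and the groups overlapped. B and plasma cell markers summed to 19.8 to 92.7 (5 of 6 in the table) over the 9 libraries. Myeloid markers (10 of 11 in the table, mostly Cd68) summed to 342 to 569 in controls, 418 to 673 in 18h-αGal and 652 to 880.1 in 72h-αGal, so that every 72h-αGal library was above every control. Endothelial and stromal markers also moved with the groups, summing to 364 to 515 in controls, 581 to 680 in 18h-αGal and 158 to 177 in 72h-αGal. Most of this sum was Vim, which had 284 to 453, 556 to 646 and 134 to 146 normalised counts in the same order, whereas Pecam1 and Col1a1 were lower in every 18h-αGal library (12.6 to 20.7 and 0 to 8.28) than in every control (31.1 to 47.5 and 18.8 to 24.7), and Cdh5 and Kdr each had a count of 0 in at least 6 of the 9 libraries. The part of these markers in the class I results was not tested. Library totals ranged from 8887861 to 32722293 counts, and the smallest library was control replicate 3.

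Control replicate 3 stood apart in these genes. It had the highest normalised count of the 3 controls in 10 of 10 class I genes, against 36.8% of all genes tested. Its normalised count was a median of 2.21 times the mean of the other controls over the 10 genes (range 1.75 to 4.97), against 0.966 times over all genes tested. Vil1, an epithelial marker that is highest in differentiated enterocytes, had 16431, 13050 and 26216 normalised counts in controls 1 to 3, 21023 to 27837 in 18h-αGal and 9645 to 15314 in 72h-αGal, and its part in the class I results was not tested. Results are therefore also given without this library. Since it was singled out by its values in these same genes, such results are a description and no independent support.

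The promoters are shown first because most of them hold an interferon response element. In RefSeq windows of build GRCm38.p6, which run from 250 bases before the transcription start to 50 bases after it, 9 of 10 class I genes held an interferon-stimulated response element, either the core TTTCNNTTTC (B2m, H2-T22 and H2-T23) or a form with 1 T fewer, TTTCNNTTC (H2-K1, H2-D1, H2-Q4, H2-Q6, H2-Q7 and H2-M3), on either strand. Either form was present in 10.4% of all 32851 windows, the core in 3.44% and the shorter form in 7.52%. The shorter form read TTTCACTTC in each gene that held it. The bases around it were nearly the same in H2-K1, H2-D1, H2-Q4, H2-Q6 and H2-Q7, so the matches in these genes are not independent of one another. A match to the core is not at the same place a match to the shorter form. The 200 bases before the start are printed 5′ to 3′ on the strand of the gene for 5 genes, with the element in capitals: H2-K1 for the classical heavy chains, B2m for the light chain, H2-Q7 for the Qa-2 genes, H2-T23 for the core element in a heavy chain, and H2-T3, in which no match was found.
H2-K1, chr17:34000334-34000533, minus strand: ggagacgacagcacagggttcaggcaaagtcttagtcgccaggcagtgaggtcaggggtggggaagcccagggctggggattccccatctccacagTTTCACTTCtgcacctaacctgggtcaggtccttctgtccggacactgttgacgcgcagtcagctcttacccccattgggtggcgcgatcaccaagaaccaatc
B2m, chr2:122147487-122147686, plus strand: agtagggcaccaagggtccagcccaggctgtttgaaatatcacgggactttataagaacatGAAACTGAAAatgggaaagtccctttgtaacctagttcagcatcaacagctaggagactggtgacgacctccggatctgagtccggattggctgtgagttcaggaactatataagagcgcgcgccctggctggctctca
H2-Q7, chr17:35438955-35439154, plus strand: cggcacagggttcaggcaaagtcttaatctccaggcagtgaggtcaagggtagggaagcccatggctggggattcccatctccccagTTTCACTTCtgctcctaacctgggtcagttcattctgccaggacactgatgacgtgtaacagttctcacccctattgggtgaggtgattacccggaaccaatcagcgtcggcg
H2-T23, chr17:36032702-36032901, minus strand: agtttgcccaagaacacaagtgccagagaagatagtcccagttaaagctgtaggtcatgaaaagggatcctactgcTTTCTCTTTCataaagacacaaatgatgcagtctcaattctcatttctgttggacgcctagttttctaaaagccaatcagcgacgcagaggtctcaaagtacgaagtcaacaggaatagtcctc
H2-T3, chr17:36190152-36190351, minus strand: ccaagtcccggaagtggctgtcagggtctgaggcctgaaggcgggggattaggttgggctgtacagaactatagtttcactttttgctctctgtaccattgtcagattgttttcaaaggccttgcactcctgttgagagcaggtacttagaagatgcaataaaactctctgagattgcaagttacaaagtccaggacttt

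The element lay between 90 and 191 bases before the start in these genes. H2-K1 has 2 RefSeq windows, with the element 104 and 90 bases before the start, and the stretch printed is from the window with 104. Both lie inside the RefSeq span of H2-K1, which begins further upstream. An NF-κB core, GGGANTCCC, stood upstream of it in H2-K1, H2-D1, H2-Q6 and H2-Q7 and in 0.77% of all windows. The motif TGACGC resembles the cyclic AMP response element of the enhanceosome bound by NLRC5. It lay 41 to 101 bases before the start in H2-K1, H2-D1 and H2-M3. In H2-Q4 its match was on the other strand and after the start. The motif was in 7.4% of all windows. The Y box CCAAT was in 9 of 10 genes, H2-T3 being without it, and in 37.4% of all windows. The gamma-activated sequence TTCNNNGAA was found in H2-M3 (8.3% of all windows). Of 12 other class I-like genes with a window, H2-M2 and H2-Q10 held a response element in either form. Such matches are descriptions of letters in these windows and do not show binding.

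At 18 h after αGalCer, 6 of the 10 class I genes rose: H2-K1, H2-D1, B2m, H2-Q4, H2-Q6 and H2-Q7 (edgeR quasi-likelihood test over all genes, adjusted p under 0.05). Genes called higher in this comparison made up 3.27% of all genes tested. DESeq2 called 9 of the 10 higher, all but H2-T3, and 803 genes of the whole table. In 9 of 10 genes every 18h-αGal library lay above every control library, an order seen in 11.5% of all genes tested, and H2-T3 was the exception. The median log2 fold change of the 10 genes was 1.21, against -0.03 over all genes tested. In bulk samples, a change in the number of cells that express a gene and a change in RNA per cell cannot be told apart.

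**Figure D1:**
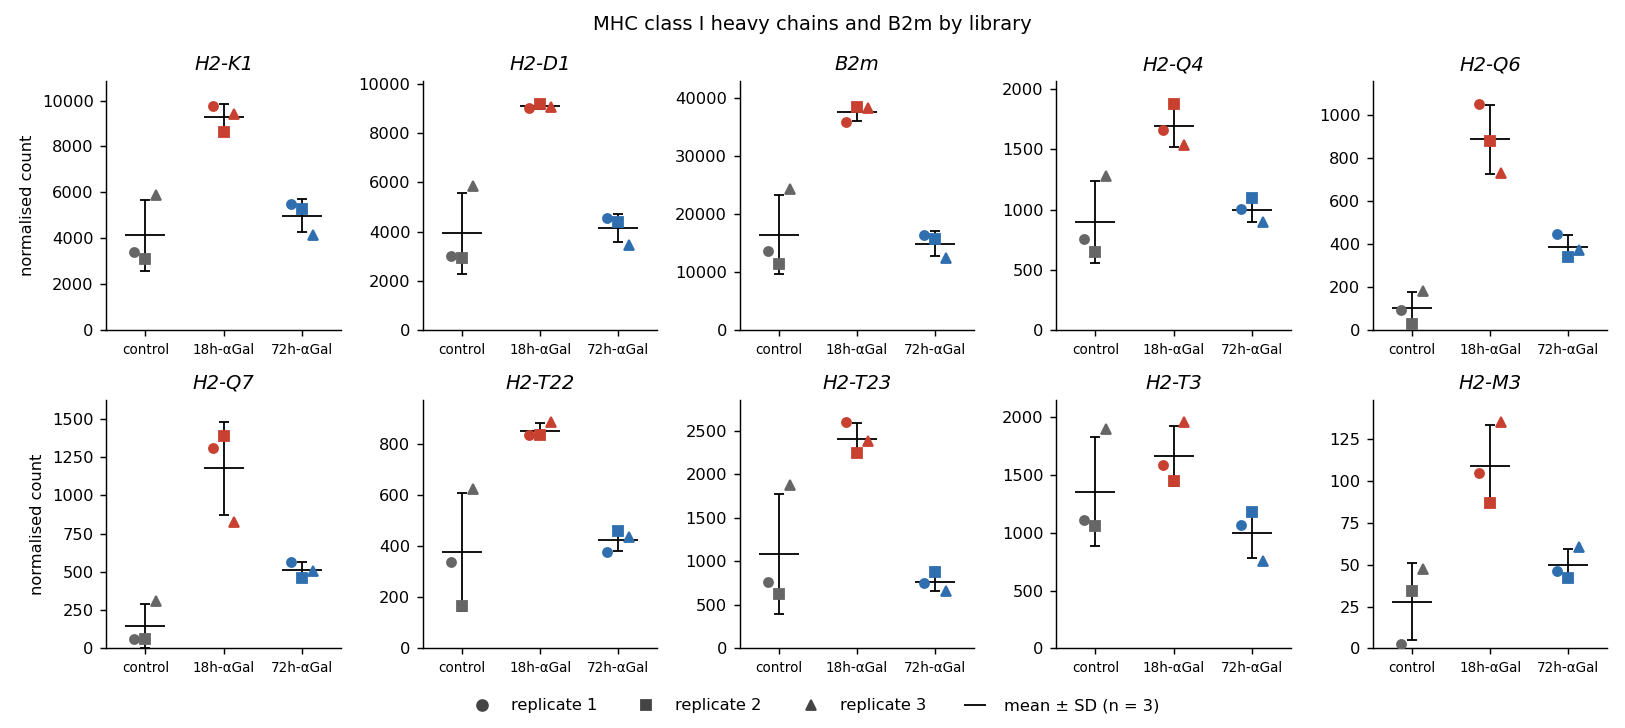
Normalised counts (y axis, linear, from 0) of the 10 genes in the 9 libraries; symbols mark the replicate number and black bars the mean ± SD of 3 mice. The 18h-αGal libraries lie above all controls in each panel except H2-T3, and control replicate 3 (grey triangle) is the highest control in all 10 panels.

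H2-K1 (ENSMUSG00000061232, chr17:33996012-34000619 in GRCm38.p6) and H2-D1 (ENSMUSG00000073411, chr17:35263094-35267497) encode the classical heavy chains that present peptides to CD8 T cells. H2-K1 had 3382, 3097 and 5882 normalised counts in the controls, 9780.2, 8627 and 9420 in 18h-αGal, and 5499, 5260 and 4156 in 72h-αGal. All 18h-αGal libraries were higher than all others, and the 72h-αGal libraries lay within the range of the controls. The log2 fold change at 18 h was 1.18 ± 0.21 (SE, n = 3 mice a group, edgeR adjusted p = 0.00678), a 2.27-fold rise. H2-D1 had 3019, 2937 and 5844 normalised counts in the controls, 9032, 9205 and 9056 in 18h-αGal, and 4564, 4384 and 3474 in 72h-αGal. It was the least variable of the 10 genes at 18 h, with a coefficient of variation of 1.03%, against 42.1% in the controls and 1.95% over control replicates 1 and 2 alone. Its log2 fold change at 18 h was 1.22 ± 0.23 (edgeR adjusted p = 0.013).

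B2m (ENSMUSG00000060802, chr2:122147687-122153082) is the only one of these genes outside chromosome 17, and its product is shared by all class I heavy chains. It had 13671, 11387 and 24297 normalised counts in the controls, 35771, 38525 and 38223 in 18h-αGal, and 16434, 15759 and 12402 in 72h-αGal. Again the 18h-αGal libraries stood above all others and the remaining groups overlapped. The log2 fold change at 18 h was 1.20 ± 0.24 (edgeR adjusted p = 0.0159). This is a 2.30-fold rise, beside 2.27-fold for H2-K1 and 2.34-fold for H2-D1.

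The Q region encodes non-classical heavy chains. H2-Q4 (ENSMUSG00000035929, chr17:35379617-35384674) had 759, 647 and 1281 normalised counts in the controls, 1663, 1881 and 1536 in 18h-αGal, and 1003, 1098 and 899 in 72h-αGal. It rose by a log2 fold change of 0.94 ± 0.20 at 18 h (edgeR adjusted p = 0.0146), the smallest of the 6 called rises. H2-Q6 (ENSMUSG00000073409, chr17:35424850-35430055) and H2-Q7 (ENSMUSG00000060550, chr17:35439140-35443773) encode Qa-2 antigens, which are anchored to the membrane by a glycolipid, and they had the largest fold changes of the 10 genes. H2-Q6 had 94.6, 28.5 and 181 normalised counts in the controls, 1051, 876 and 727 in 18h-αGal, and 445, 337 and 373 in 72h-αGal. Its 3 groups did not overlap, and its log2 fold change at 18 h was 3.23 ± 0.50 (edgeR adjusted p = 0.00705), a 9.41-fold rise. H2-Q7 had 61.7, 62.6 and 309 normalised counts in the controls, 1312, 1387 and 829 in 18h-αGal, and 564, 463 and 508 in 72h-αGal. Its groups did not overlap either. Its log2 fold change at 18 h was 3.18 ± 0.64 (edgeR adjusted p = 0.0315), and this call was lost in 11 of 17 alternative fits, in which adjusted p reached 0.105. H2-Q6 and H2-Q7 share stretches of sequence. Of all stretches of 100 bases, the read length, in the representative transcript of H2-Q7, 21.9% also occurred in another gene of the table, and 11.9% occurred in H2-Q6. For H2-Q6, 12.7% occurred in another gene and 8.2% in H2-Q7, so the split of reads between H2-Q6 and H2-Q7 is uncertain over these stretches. For H2-Q4 the share was 17.9%, of which most (15.1% of its stretches) was in Gm11131, a gene on the opposite strand.

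In the T region, H2-T22 (ENSMUSG00000056116, chr17:36037128-36042742) encodes a ligand of a subset of γδ T cells. It had 340, 167 and 623 normalised counts in the controls, 835.5, 836 and 886 in 18h-αGal, and 376.5, 459 and 436 in 72h-αGal. The 18h-αGal libraries were above all others, but the log2 fold change of 1.22 ± 0.35 did not pass the test (edgeR adjusted p = 0.0638). H2-T23 (ENSMUSG00000067212, chr17:36029977-36032701) encodes Qa-1, which displays leader peptides of other class I chains to CD94-NKG2 receptors of NK cells. Its normalised counts were 762, 621 and 1878 in the controls, 2597, 2239 and 2380.1 in 18h-αGal, and 755, 881 and 663 in 72h-αGal. Control replicate 3 had 2.72 times the mean of the other controls, and the log2 fold change at 18 h, 1.18 ± 0.37, did not pass the test (edgeR adjusted p = 0.116). Exons of H2-T22 and H2-T23 overlap the antisense gene A930015D03Rik, and those of H2-Q4 overlap Gm11131. The strand setting of the counting is not given in the sources used here, so reads of these pairs may not have been separated.

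H2-T3 (ENSMUSG00000054128, chr17:36185571-36190151) encodes the TL antigen of the small intestinal epithelium, which binds CD8αα on intraepithelial lymphocytes. It had 1109, 1063 and 1902 normalised counts in the controls, 1592, 1453 and 1959 in 18h-αGal, and 1065, 1181 and 757 in 72h-αGal. Control replicate 3 lay within the 18h-αGal range, and the log2 fold change of 0.31 ± 0.22 did not pass the test (edgeR adjusted p = 0.475). H2-M3 (ENSMUSG00000016206, chr17:37270234-37274485) encodes a heavy chain that presents N-formylated peptides of bacteria and mitochondria. It was the least abundant of the 10 genes, with raw counts of 4, 36 and 20 in the controls, 166, 97 and 98 in 18h-αGal, and 40, 42 and 82 in 72h-αGal. As normalised counts these were 2.35, 34.2 and 47.5 in the controls, 105, 87.1 and 135 in 18h-αGal, and 46.3, 42.4 and 60.3 in 72h-αGal. The control and 18h-αGal groups did not overlap, and the log2 fold change of 2.06 ± 0.70 did not pass the test (edgeR adjusted p = 0.0997).

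**Figure D2:**
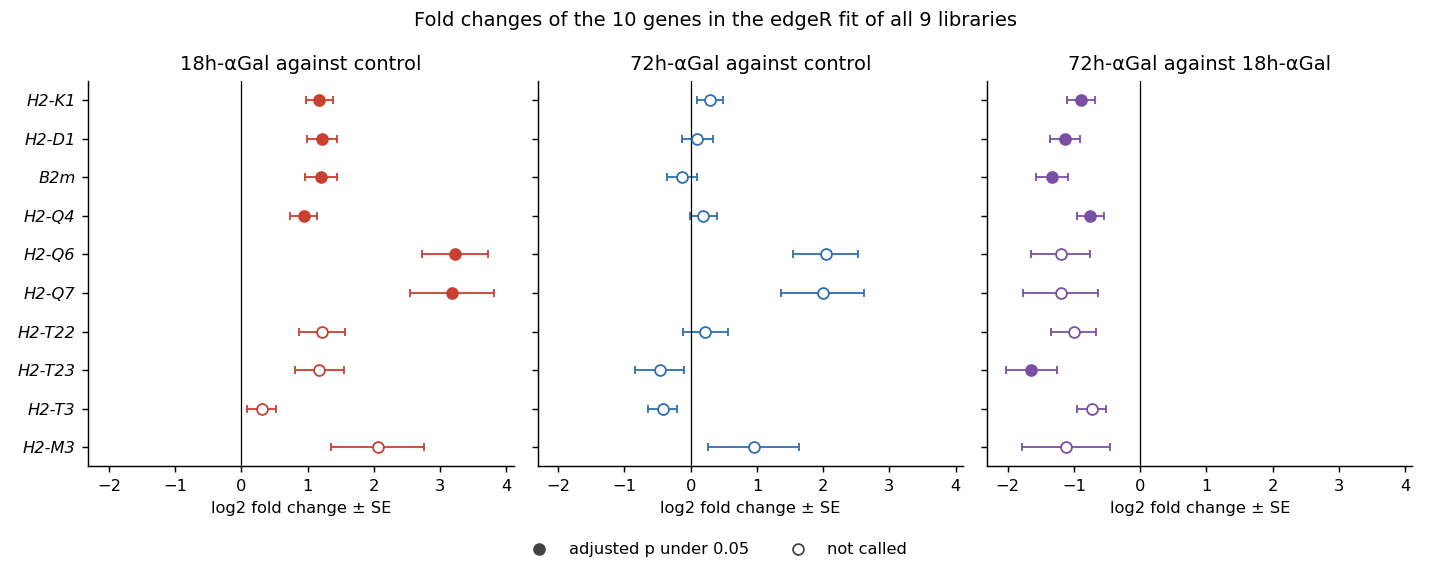
Log2 fold change ± SE (x axis) of each gene in the 3 comparisons of the edgeR fit; filled points have an adjusted p under 0.05. At 18 h against control 6 points are filled, at 72 h against control 0, and between 72 h and 18 h 5, all below 0.

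Without control replicate 3, all 10 genes were called higher at 18 h. In that fit 864 genes of the whole table were called higher, against 619 with all libraries. Control replicate 3 was the highest control in all 10 genes. Leaving it out thus raises their fold changes by construction, and these calls are no independent support. The log2 fold changes without it were 4.24 ± 0.26 for H2-Q7 and 3.80 ± 0.41 for H2-Q6. They were between 1.52 and 1.80 for H2-K1, H2-D1, B2m, H2-T22 and H2-T23. H2-T3 was the smallest at 0.62 ± 0.18 (edgeR adjusted p = 0.0463), and its adjusted p over the 17 alternative fits ranged up to 0.77. Leaving out control replicate 1 or 18h-αGal replicate 2 reduced the count of called genes from 6 to 2 each, and leaving out 18h-αGal replicate 3 reduced it to 3, whereas every fold change stayed positive in every alternative fit. Over the 17 alternative fits, the call was kept in all for H2-K1 and lost in 4 for B2m (adjusted p up to 0.0758), 3 for H2-D1, 2 for H2-Q4, 1 for H2-Q6 and 11 for H2-Q7. A call was gained in 4 for H2-T22, 3 for H2-T23, 3 for H2-M3 and 1 for H2-T3, in each case with the fit without control replicate 3 among them. The coefficient of variation was largest in the controls for 10 of 10 genes, against 42.4% of all genes tested, and its median over the 10 genes was 51.6% in controls, 8.9% in 18h-αGal and 14.3% in 72h-αGal. Over control replicates 1 and 2 alone the median was 12.1%, against 15.8% over all genes tested. It was still 123% for H2-M3, 76.0% for H2-Q6 and 48.2% for H2-T22, and at most 14.4% for the other genes.

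At 72 h after αGalCer, 0 of the 10 genes were called against the controls by edgeR or by DESeq2, and 2 (H2-Q6 and H2-Q7) had an unadjusted p under 0.05 in edgeR. Genes called in this comparison were 0.0264% of all genes tested. The median log2 fold change was 0.20 for the 10 genes and 0.00 for all genes tested. H2-K1, H2-D1, B2m, H2-Q4, H2-T22, H2-T23, H2-T3 and H2-M3 overlapped the controls, with log2 fold changes from -0.47 ± 0.37 for H2-T23 to 0.95 ± 0.69 for H2-M3. H2-Q6 and H2-Q7 lay above every control in all 3 mice, an order seen in 6.36% of all genes tested. Their log2 fold changes at 72 h were 2.04 ± 0.49 (edgeR adjusted p = 0.671) and 1.99 ± 0.62 (edgeR adjusted p = 0.81). Without control replicate 3 these 2 genes, and no other of the 10, were called at 72 h, at 2.61 ± 0.39 (edgeR adjusted p = 0.031) for H2-Q6 and 3.05 ± 0.25 (edgeR adjusted p = 2.17e-05) for H2-Q7. In that fit 11 genes of the whole table were called higher. The library left out was the highest control for H2-Q6 and H2-Q7, so these calls are no independent support. Over the 17 alternative fits the adjusted p of both genes at 72 h ranged up to 1.0.

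**Figure D3:**
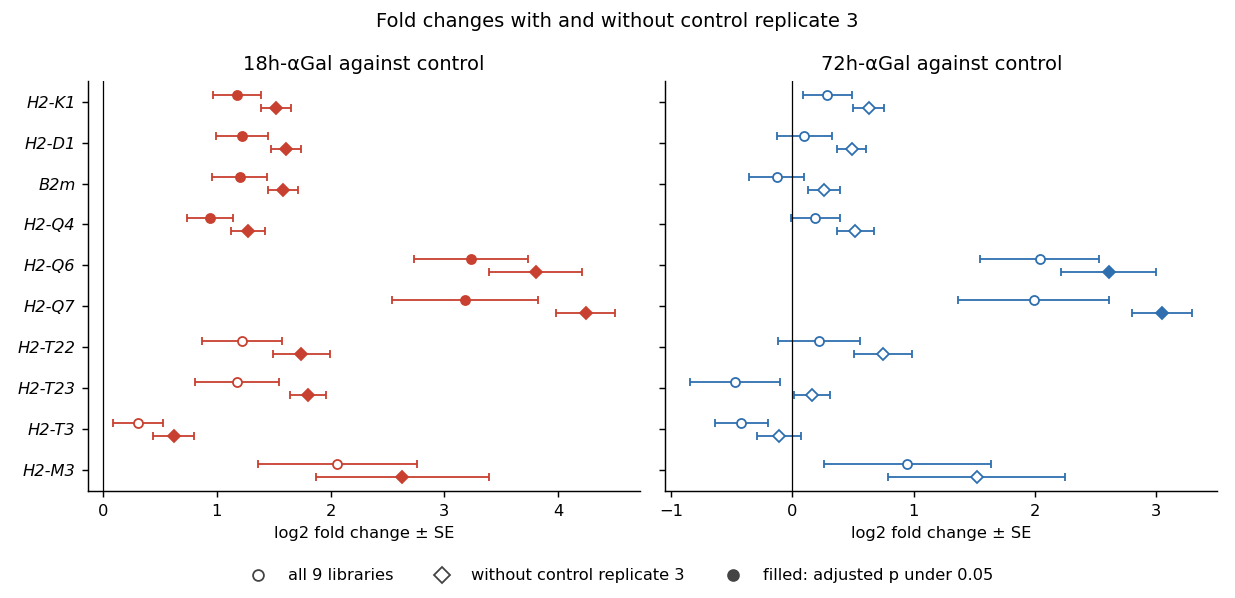
Log2 fold change ± SE (x axis) against control at 18 h (left) and 72 h (right), from all 9 libraries (circles) and without control replicate 3 (diamonds); filled symbols have an edgeR adjusted p under 0.05. Without that library all 10 genes are filled at 18 h, and H2-Q6 and H2-Q7 at 72 h. It was singled out as the highest control in all 10 genes, so leaving it out raises the fold changes by construction.

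Between the αGalCer groups, 5 of the 10 genes were lower at 72 h than at 18 h: H2-K1, H2-D1, B2m, H2-Q4 and H2-T23. Genes called lower in this comparison were 6.04% of all genes tested. In 10 of 10 genes every 72h-αGal library lay below every 18h-αGal library, an order seen in 16.3% of all genes tested. The median log2 fold change was -1.12, against 0.05 over all genes tested. This comparison is also the test of whether the fold changes against control at the 2 times differ, since both use the same 3 controls. With no PBS group at 72 h, it does not separate αGalCer from the time since injection. H2-T23 fell by 1.64 ± 0.38 on the log2 scale (edgeR adjusted p = 0.0304) and B2m fell by 1.33 ± 0.24 (edgeR adjusted p = 0.00684). H2-D1 fell by 1.13 ± 0.23 (edgeR adjusted p = 0.0124), H2-K1 fell by 0.89 ± 0.21 (edgeR adjusted p = 0.0181) and H2-Q4 fell by 0.75 ± 0.20 (edgeR adjusted p = 0.029). The other 5 genes had log2 fold changes from -0.73 ± 0.22 for H2-T3 to -1.20 ± 0.45 for H2-Q6 and -1.20 ± 0.57 for H2-Q7, with edgeR adjusted p between 0.0567 and 0.329. With each library left out in turn, the number called ranged from 1 (without 72h-αGal replicate 3) to 9 (without control replicate 3). It was 2 without each of the 18h-αGal replicates 1, 2 and 3, 3 without 72h-αGal replicate 1 or 2, and 8 without control replicate 2. No control enters the difference between the αGalCer groups, but all 9 libraries share the estimate of the spread. Without control replicate 3 the median log2 fold change of the 10 genes was again -1.12. The SE was then 0.11 for H2-K1 and 0.14 for H2-T23.

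To compare genes with one another, normalised counts were divided by the length of a representative transcript in kb. On this scale of levels per kb, B2m was the most abundant of the 10 genes in every group, at 15149 ± 6344 in controls (mean ± SD, n = 3 mice), 34536 ± 1390.4 in 18h-αGal and 13688 ± 1988 in 72h-αGal. H2-K1 followed at 2545 ± 946, 5729 ± 364 and 3071 ± 442, and H2-D1 at 1858 ± 782, 4297 ± 44.3 and 1956 ± 276. In the controls the order was then H2-T23, H2-T3, H2-Q4, H2-T22, H2-Q7, H2-Q6 and H2-M3. The ranges of neighbours in this order did not overlap for B2m and H2-K1, for H2-D1 and H2-T23, and for H2-Q4 and H2-T22, and they overlapped for the other 6 pairs. At 18 h H2-Q7 stood above H2-T3 in the order, at 785 ± 202 against 721 ± 113 per kb, with overlapping ranges, while in the controls it was at 96.5 ± 95.2 against 587 ± 204 with ranges apart. H2-M3 was the lowest in each group, at 19.4 ± 16.1, 75.5 ± 16.9 and 34.4 ± 6.55 per kb.

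Every heavy chain pairs with B2m, so their levels were also set against it. The summed normalised counts of the 9 heavy chains were 12045 ± 5130.1 in controls, 27162 ± 717 in 18h-αGal and 13250 ± 1669 in 72h-αGal. Per kb, the heavy chain sum over B2m was 0.414, 0.449 and 0.441 in the controls, 0.473, 0.415 and 0.423 in 18h-αGal, and 0.523, 0.537 and 0.550 in 72h-αGal. The 72h-αGal values were above all others, whereas control and 18h-αGal values overlapped. This sum holds only the 9 heavy chains named and leaves out the other class I-like genes. The most abundant of these by count, H2-Q2, had means of 4173 normalised counts in controls, 5777 in 18h-αGal and 2463 in 72h-αGal. The order of the groups may thus depend on the genes summed, which was not tested. H2-K1 and H2-D1 made up 64.8% to 70.2% of the sum per kb of these 9 heavy chains over the 9 libraries.

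Proportions among the heavy chains take out the common level of a library. H2-Q6 and H2-Q7 together had 2.44, 1.51 and 4.18 normalised counts per 100 of H2-K1 and H2-D1 in the controls, 12.6, 12.7 and 8.42 in 18h-αGal, and 10.03, 8.29 and 11.5 in 72h-αGal. Both αGalCer groups lay above all controls and overlapped each other. H2-T3 had 17.3, 17.6 and 16.2 per 100 of H2-K1 and H2-D1 in the controls, including control replicate 3, then 8.46, 8.15 and 10.6 in 18h-αGal, and 10.6, 12.3 and 9.92 in 72h-αGal. Both αGalCer groups lay below all controls on this scale. H2-K1 over H2-D1 was 1.12, 1.06 and 1.01 in the controls, 1.08, 0.937 and 1.04 in 18h-αGal, and 1.21, 1.20 and 1.20 in 72h-αGal, where it was above all other libraries. These 4 proportions gave 12 comparisons, of which 8 had groups that did not overlap, each with a two-sided exact permutation p of 0.1, the smallest possible with 3 against 3, and an adjusted p of 0.15, so that none could pass 0.05.

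**Figure D4:**
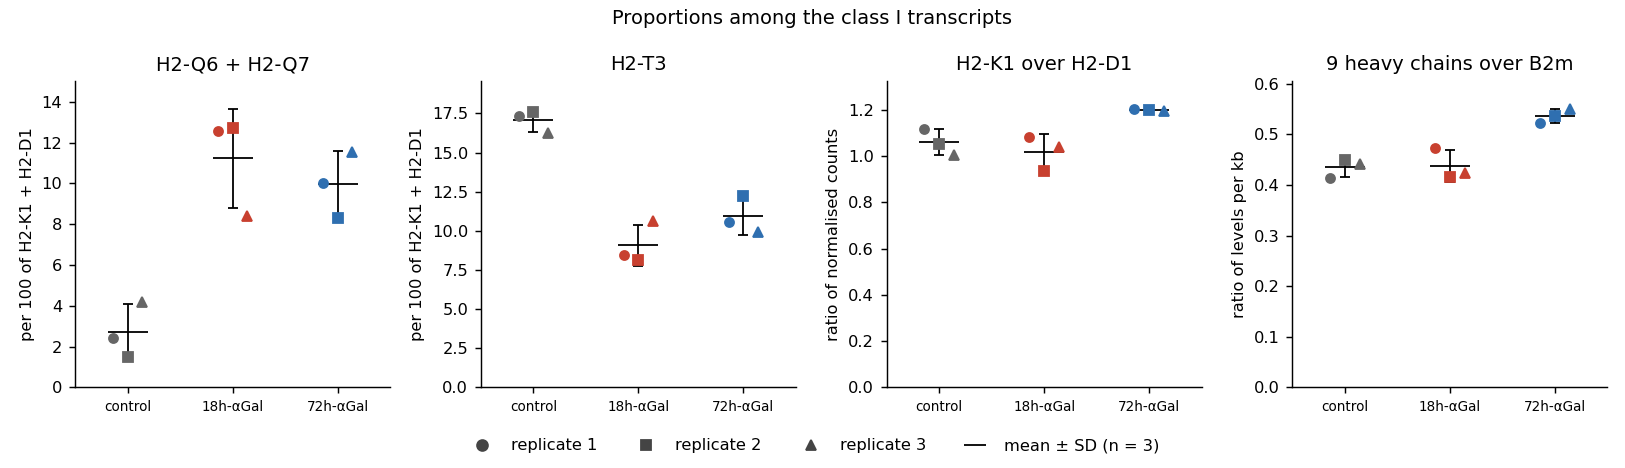
Proportions among the class I transcripts in the 9 libraries (y axes linear, from 0), with the mean ± SD of 3 mice; H2-Q6 + H2-Q7 and H2-T3 are per 100 normalised counts of H2-K1 + H2-D1, and the heavy chain sum over B2m is per kb. H2-Q6 + H2-Q7 lie at 1.51 to 4.18 in controls and at 8.29 to 12.7 after αGalCer, and H2-T3 at 16.2 to 17.6 and 8.15 to 12.3.

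Most genes that supply and load peptides also rose at 18 h. Of 15 such genes 13 rose and 0 fell, against 3.27% of all genes called higher, and DESeq2 also called 13. The median log2 fold change of the 15 was 0.93. Tap1, a subunit of the peptide transporter, had 1333, 992 and 2834 normalised counts in the controls, 7422, 8474 and 8258 in 18h-αGal, and 1975, 1756 and 1242 in 72h-αGal. Its log2 fold change at 18 h was 2.25 ± 0.38 (edgeR adjusted p = 0.0166). The immunoproteasome subunits Psmb8 and Psmb9 rose by 2.00 ± 0.37 and 1.99 ± 0.25 on the log2 scale, and Psmb10 by 0.80 ± 0.18. Tap2 (1.41 ± 0.28), tapasin (Tapbp, 1.09 ± 0.19) and its relative Tapbpl (1.06 ± 0.16) rose as well. The chaperones calreticulin (Calr) and Pdia3, which also serve other proteins of the endoplasmic reticulum, rose by 0.99 ± 0.12 and 0.93 ± 0.13. The proteasome activator subunit Psme3 (0.36 ± 0.12, edgeR adjusted p = 0.101) and the aminopeptidase Lnpep (-0.11 ± 0.11, edgeR adjusted p = 0.645) did not pass the test. At 72 h, 0 of the 15 were called against the controls by edgeR or DESeq2 (1 at an unadjusted p under 0.05), and 13 were lower at 72 h than at 18 h. Of all genes tested, 0.0264% were called at 72 h against the controls and 6.04% were called lower at 72 h than at 18 h. Without control replicate 3, Psmb8 was called higher at 72 h, at 1.25 ± 0.22.

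Of 15 transcriptional regulators of class I genes, 2 rose at 18 h: Irf8 (1.39 ± 0.20) and Irf1 (0.76 ± 0.16), each a factor that acts in interferon signalling. Genes called higher were 3.27% of all genes tested, and DESeq2 called 3 of the 15. Nlrc5, the class I transactivator, had 96.9, 104 and 794 normalised counts in the controls, 2491, 2957 and 2471 in 18h-αGal, and 627, 412.5 and 648 in 72h-αGal. Control replicate 3 was above the 72h-αGal range, and the other 2 controls were below it. The log2 fold change of Nlrc5 at 18 h was 3.12 ± 0.87 (edgeR adjusted p = 0.101), and without control replicate 3 it was 4.72 ± 0.23 and called. Stat2 was the other regulator whose call depended on that library, with 1.70 ± 0.43 (edgeR adjusted p = 0.067) and 2.38 ± 0.19 without it, so that 4 of 15 were then called. Subunits of the constitutive factors RFX (Rfx5, Rfxap, Rfxank) and NF-Y (Nfya, Nfyb, Nfyc) had log2 fold changes from -0.16 to 0.26 and were not called. At 72 h, 0 of the 15 were called by edgeR or DESeq2 and 0 had an unadjusted p under 0.05, and without control replicate 3 Nlrc5 was called, at 2.51 ± 0.21. Between 72 h and 18 h, Stat2, Irf1 and Irf8 fell, against 6.04% of all genes called lower.

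**Figure D5:**
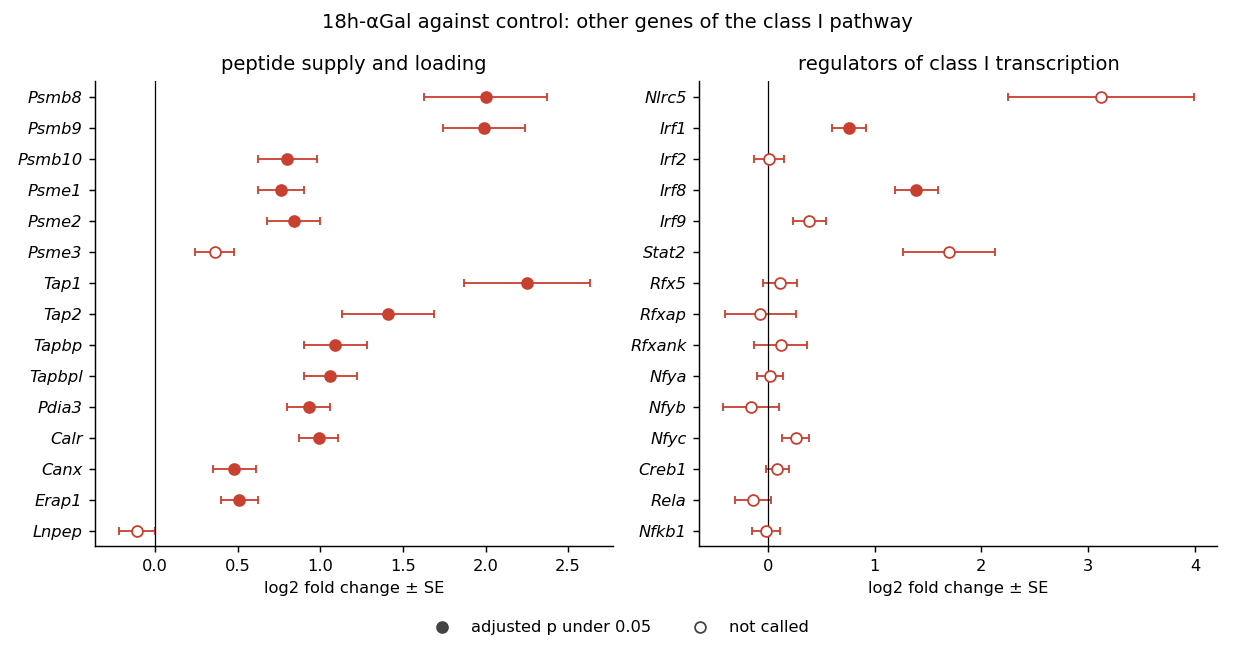
Log2 fold change ± SE (x axis) at 18 h against control of the 15 peptide supply and loading genes (left) and the 15 regulators (right); filled points have an edgeR adjusted p under 0.05. Filled points number 13 on the left and 2 on the right, and Nlrc5, with the largest value on the right (3.12 ± 0.87), is open.

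Most other class I-like genes did not pass the test. Of 21 listed, 15 were in the table and 11 were tested, with a median log2 fold change of 0.13 at 18 h. H2-Q10, a heavy chain of the Q region, had 113, 96.8 and 85.6 normalised counts in the controls, 216, 207.5 and 230.4 in 18h-αGal, and 135.5, 118 and 83.2 in 72h-αGal. It rose by 1.14 ± 0.29 on the log2 scale at 18 h (edgeR adjusted p = 0.0293), and without control replicate 3, the lowest control for this gene, it was 1.05 ± 0.31 and just missed the threshold (edgeR adjusted p = 0.0529). Hfe, which regulates iron uptake and is no peptide-presenting molecule, fell by 1.74 ± 0.46 on the log2 scale (edgeR adjusted p = 0.0363). H2-T10, the close relative of H2-T22, was at the threshold with 1.61 ± 0.45 (edgeR adjusted p = 0.05, not called), and 9.5% of the 100-base stretches of H2-T22 also occur in it. H2-Q2, the most abundant of these genes by count, had 3832, 2497 and 6191 normalised counts in the controls and 5619, 4711 and 7001 in 18h-αGal, and was not called (0.48 ± 0.38, edgeR adjusted p = 0.544). Cd1d1, which presents αGalCer, had 13.5 to 36.4 normalised counts in the 9 libraries and a log2 fold change of -0.67 ± 0.64 at 18 h (edgeR adjusted p = 0.616). At 72 h 0 of the 11 were called against the controls by edgeR or DESeq2 (1 at an unadjusted p under 0.05).

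Among 7 surface ligands through which epithelial cells also signal to lymphocytes and phagocytes, 4 were tested and 1 rose at 18 h, against 3.27% of all genes called higher. This was Cd274, encoding the inhibitory ligand PD-L1, with 39.4, 45.6 and 26.1 normalised counts in the controls, 164, 129 and 146 in 18h-αGal, and 23.2, 28.2 and 50.8 in 72h-αGal. Its log2 fold change was 1.96 ± 0.42 at 18 h (edgeR adjusted p = 0.0137). The NKG2D ligands Raet1e and Ulbp1 had 2.35 to 26.5 and 21.4 to 92.7 normalised counts and were not called.

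The genes with the pattern most like that of B2m over the 9 libraries were sought among 10903 abundant genes by Pearson correlation of log2 normalised counts. The closest 5 were Tap1 (r = 0.993), Tapbp (r = 0.993), Lgals9 (r = 0.993), Adar (r = 0.992) and Stat2 (r = 0.991). Lgals9 encodes the lectin galectin-9, and Adar an enzyme that edits adenosine in double-stranded RNA. The heavy chains had r from 0.744 (H2-Q6) and 0.750 (H2-Q7) to 0.987 (H2-D1), with 8 of them abundant enough to enter. By rank correlation, Tap1 remained among the closest 5, and it ordered the 9 libraries exactly as B2m did (rho = 1.0), as did Erap1, Psme1, Batf2 and Ssu72. Lgals9 then ranked 19, Tapbp 105, and Adar and Stat2 both 175. These correlations are descriptions over 9 libraries that fall into 3 groups and share the difference between groups.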

How the data were processed

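RNA of sorted crypt IECs from 9 mice was sequenced by the authors from ribosomal RNA-depleted, directional libraries (100-base reads). Per the submitters' processing notes, reads were mapped with HISAT2 and counted with featureCounts of Subread. These notes name build GRCm38 (mm10) and the study's methods GRCm39; identifiers in the table end at number 118657, while 26560 genes of the GENCODE vM39 annotation of GRCm39 have higher ones. Positions and promoter windows here are from RefSeq tables of GRCm38.p6. The deposited raw counts were used for tests. The deposited normalised signal equalled these counts divided by DESeq2 size factors (largest relative difference 8.9e-16) and is printed as normalised counts. Symbols were taken from GENCODE vM39 for 28480 of 29288 identifiers, which held 98.4% of counts.

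Counts were tested with edgeR 4.0.16 in R 4.3.3 after filterByExpr (18933 genes) and TMM scaling, in one robust quasi-likelihood fit of all 9 libraries, with Benjamini-Hochberg adjustment over all genes and a threshold of 0.05. Standard errors were derived from the F statistic. DESeq2 1.42.0, other scalings, filters and fits, and leaving out each library were alternatives. For the pathway lists, DESeq2 and leaving out control replicate 3 were added after the data were seen. The count floor of 3 counts was 1.76 to 7.13 normalised counts per library and covers counting error only. Scripts were tested on simulated data. Over all genes, 619 were called higher and 509 lower at 18 h (479 and 670 under upper-quartile scaling), and 792 higher and 1144 lower between 72 h and 18 h (1019 and 845 under upper-quartile scaling). Ratios were compared by exact permutation over mice.

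All 10 genes were named, by role, with lists of other class I-like genes, peptide supply and loading genes, regulators, surface ligands and cell markers. One listed regulator is not reported here. The genes, lists and tests were chosen with earlier results of these data known. Likeness to B2m used log2(normalised count + 1). Of the erythroid markers listed, 0 of 3 were in the table.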

Additional observations from a re-analysis of the deposited data

Results flagged for a closer look

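The fold changes at 18 h and 72 h were measured against the same 3 controls. Their difference is tested by the comparison of the αGalCer groups. No PBS group was sampled at 72 h, so in this comparison αGalCer and the time since injection cannot be told apart. By that test (edgeR, adjusted p under 0.05 over all genes) the αGalCer groups differed in 5 of the 10 class I genes. The log2 fold change at 72 h minus that at 18 h was -1.64 for H2-T23, -1.33 for B2m, -1.13 for H2-D1, -0.89 for H2-K1 and -0.75 for H2-Q4. In each of them all 3 mice at 72 h were below all 3 mice at 18 h, as was the case for the other 5 genes and for 16.3% of all genes tested. Groups of 3 were too small for the test of single outlying libraries that is used in larger groups.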

How the results depend on the processing

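H2-M3 was the least abundant gene, with 4 counts in control replicate 1, the library with the largest total. Control replicate 3, the smallest library, had 20. The number of class I genes called at 18 h was 2 to 10 with single libraries left out (6 with all), and 4 to 9 under the other alternatives. At 72 h it was 0 to 2 (0 with all), and between 72 h and 18 h it was 1 to 9 (5 with all), 3 without a filter on low counts, 9 in a fit of the 6 libraries compared and 3 when a log2 fold change of at least 1 was also required. Over all genes, leaving out single libraries gave 432 to 1556 calls at 18 h, 0 to 20 at 72 h and 831 to 2593 between the times. At 18 h DESeq2 called 1720 genes, the fit of 6 libraries 593, and the added fold limit left 426. At 72 h the calls were 13 without the filter, 31 by DESeq2 and 3 without the robust option. The fold limit left 682 calls between the times. The cause of these differences was not tested, apart from the smaller number of samples or calls that an alternative allows by construction. Against control at 72 h, log2 fold changes changed sign for H2-D1 without control replicate 1 (-0.06) or 2 (-0.07), for H2-T22 without control replicate 2 (-0.14), and without control replicate 3 for B2m (0.26) and H2-T23 (0.16), and none of these was called. With single libraries left out, their ranges were -0.07 to 0.49 (H2-D1), -0.33 to 0.26 (B2m), -0.14 to 0.75 (H2-T22) and -0.74 to 0.16 (H2-T23). At 18 h and between the times, no fold change of the 10 genes changed sign in the 17 alternative fits. Replicate numbers recur in each group, but the correlations of deviations between same-numbered libraries were -0.15 to 0.115, so the numbers were not taken as pairs. With the replicate number as a block, 5, 0 and 3 of the 10 genes were called in the 3 comparisons, and 781, 1 and 1371 of all genes. The heavy chain sum was 2.26 times the control level at 18 h by normalised counts and 2.27 times by CPM (counts scaled to the library total). Of the 5 genes most like B2m, 1 was also among the 5 by Spearman correlation.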
